A study of Mus musculus with 39 samples.

Results

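Breast samples of Sleeping Beauty mice were ordered by their own Axin2 signal, and the 9 arrays with the highest Axin2 were set against the 9 with the lowest. The arrays were chosen by Axin2 itself: its log2 value on its brighter probe set was ranked over the 27 arrays labelled Quadruple (SB/Tg/K5Cre/Bcat) or Triple (SB/Tg/k5Cre). The comparison therefore holds 18 of 27 such arrays and 18 of the 39 mouse arrays in the series. The 9 arrays between them are called the middle set. Axin2 itself was not tested, and every p below speaks of genes that go with Axin2 on these arrays, not of a treatment.

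The quadruple group had 19 arrays from 15 animals, and the triple group, here triple K5Cre, had 8 arrays from 8 animals. Both genotypes carry the elements labelled SB, Tg and K5Cre, so no array compared here is without them, and the quadruple mice carry Bcat in addition. Sleeping Beauty is a transposon used for insertional mutagenesis, and K5 is the usual name of keratin 5, whose promoter is active in basal and stratified epithelium. The labels give the tissue as breast, with no strain, age, stage or statement of whether a sample was a tumour, and they do not spell out Bcat or Tg. Normal mammary gland, used as a reference level only, gave 4 arrays from 4 animals of 3 genotypes (quadruple, triple K5Cre and triple with Bcat in place of K5Cre). Normal gland 1 came from the triple mouse with Bcat in place of K5Cre, normal gland 2 from a quadruple mouse, and normal gland 3 and 4 from triple K5Cre mice. Normal gland 3 and 4 carry the same animal identifiers as triple K5Cre 2 and 3. Arrays are numbered within a group, and the number carries no order.

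In canonical Wnt signalling, a Wnt ligand bound to a Frizzled receptor and its Lrp co-receptor stops the destruction complex from degrading beta-catenin, which then acts with TCF/LEF factors on target genes. Axin2 is a scaffold of that complex and is itself such a target, so it is widely used as a readout of Wnt output. In mammary gland and skin the pathway is known for its roles in placodes, in basal and stem cells, and in the hair follicle.

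Axin2 spanned 4.99 to 9.49 on the log2 scale over the 27 arrays. In the Axin2-high set it ran from 8.60 through a median of 8.80 to 9.49, with a mean of 8.89 ± 0.35 (SD, n = 9 arrays from 7 animals). In the Axin2-low set it ran from 4.99 through a median of 5.58 to 7.0, with a mean of 6.0 ± 0.78 (SD, n = 9 arrays from 9 animals). The middle set lay at 8.33 ± 0.23 (SD, n = 9). The upper boundary is thin: the last array inside the high set, quadruple 18, was at 8.60 and the first outside it, triple K5Cre 4, at 8.59. The lower boundary is wide: the last middle array, quadruple 13, was at 7.94 and the first low array, quadruple 5, at 7.0. That gap of 0.94 is larger than the 0.64 spanned by the whole middle set.

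**Figure D1:**
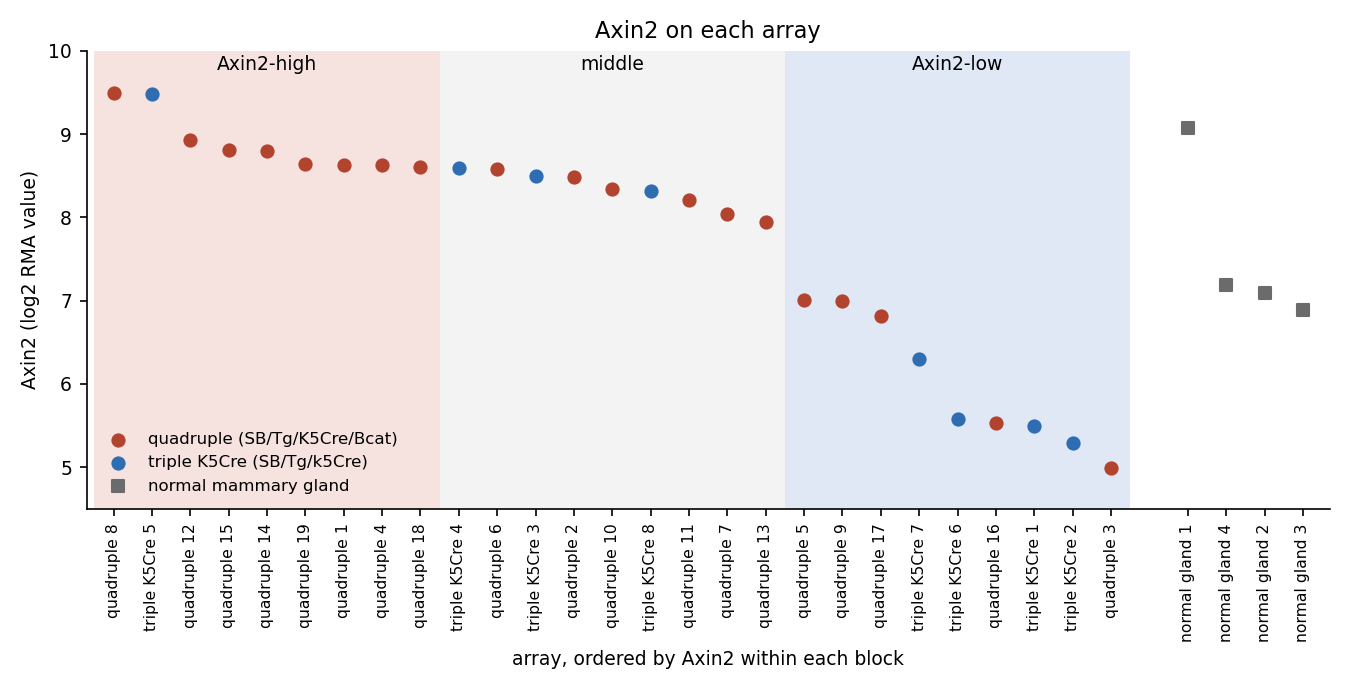
Axin2 (log2 RMA value, vertical axis) on each of the 27 K5Cre arrays in rank order and on the 4 normal gland arrays, 1 point per array, coloured by genotype. The high and middle sets run into each other around 8.60, while 0.94 separates the lowest middle array from the highest low array.

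Normal gland did not mark a low end. Its arrays were at 6.88, 7.09, 7.19 and 9.07, so 3 of 4 lay around the top of the low set and normal gland 1 lay inside the high set. Normal gland 1 was also the highest of the 4 in the Wnt target Wif1 (11.12) and in the squamous gene Krt6b (9.72). It was the only gland from a triple mouse with Bcat in place of K5Cre, so genotype and single array cannot be told apart. The dimmer Axin2 probe set, with a mean of 4.10 over all 39 arrays against 7.79 for the one used, had a Pearson correlation of 0.73 with it over the 27 arrays.

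The genotypes were spread over both ends. The high set held 8 quadruple arrays and 1 triple K5Cre array, the middle set 6 and 3, and the low set 5 and 4. The odds ratio for a quadruple array in the high rather than the low set was 6.40, with a p of 0.294 by Fisher's exact test (two-sided). That test counts arrays of the same animal as independent. With each animal once, by its first listed array, the high set held 6 and 1 and the low set 4 and 4 (p = 0.282 by the same test). Animal Q648, with an array in both sets, was thereby counted in the high set. Over animals, Axin2 was 7.83 ± 1.21 (SD, n = 15) in quadruple and 7.19 ± 1.69 (SD, n = 8) in triple K5Cre mice. The difference of 0.64 had a p of 0.302 in an exact permutation test over animals (two-sided). With 15 and 8 animals this does not show that the genotypes are alike. The second highest array of all, triple K5Cre 5 at 9.48, carries no Bcat label, and the lowest of all, quadruple 3 at 4.99, does.

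Several arrays stood apart and bear on what follows. Quadruple 8, the array highest in Axin2, was low in the epithelial gene Epcam (8.13, against 11.10 to 12.70 on the other high arrays). Quadruple 17, in the low set, had a squamous list mean of 11.45, within the range of the high set. Quadruple 5 and triple K5Cre 2, both low, had Xist at 5.72 and 7.0 against 10.77 or more on the other arrays compared, and triple K5Cre 2 had Krt5 at 5.74. Animal Q648 gave an array to each set, Q190 and Q2154 each gave 2 arrays to the high set, and the fit treats an animal's arrays as correlated.

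Of 18193 genes tested, 911 were higher in the Axin2-high set (5.01%) and 1075 were lower (5.91%), at an adjusted p under 0.05. All 9 high arrays lay above all 9 low arrays for 38 genes (0.209%) and below them for 36 genes (0.198%). The median difference over all genes was -0.03, and 45% of genes had a positive one. Without quadruple 9 the shares were 2.59% and 3.49%, and without triple K5Cre 5 they were 3.06% and 4.08%. Among the quadruple arrays alone they were 2.20% and 3.28%, and without animal Q648 4% and 4.88%. Differences below are fitted log2 differences, high minus low, with their standard error (SE). They need not equal the difference of the set means, because arrays of the same animal share weight.

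The canonical Wnt targets went up with Axin2 as a group. Of 26 measured members, 13 were higher in the Axin2-high set (against 5.01% of all genes), 1 was lower and 12 did not pass the test. Their median difference was 1.31, and 20 of 26 differences were positive. The mean level of the list ran from 7.35 to 8.52 on the high arrays and from 5.88 to 6.76 on the low arrays, with no overlap, and from 7.04 to 7.88 in the middle set. In normal gland it ran from 6.26 to 7.61. The sets did not overlap for 4 of them, Apcdd1, Nkd1, Znrf3 and Dkk4, as they did not for 0.209% of all genes.

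Negative feedback genes led the rise. Apcdd1 encodes a membrane protein that inhibits Wnt signalling at the receptor. It was at 7.98 to 10.46 on the high arrays (median 9.48) and at 3.90 to 7.69 on the low arrays (median 5.96), a difference of 3.54 ± 0.47 (SE, adjusted p = 0.000138). All high arrays were above all low ones, yet normal gland, at 8.71 to 10.25, was also above every low array. Nkd1, which binds Dishevelled inside the cell, ran from 6.21 to 9.07 (median 7.15) against 3.85 to 5.86 (median 4.46), a difference of 2.84 ± 0.35 (adjusted p = 0.00013). Its relative Nkd2 ran from 7.45 to 11.41 against 5.76 to 9.21 and differed by 2.16 ± 0.55, with overlap between the sets. Znrf3, a ubiquitin ligase that removes Frizzled receptors, ran from 8.33 to 10.05 (median 9.20) against 6.56 to 7.82 (median 7.52), a difference of 1.71 ± 0.23 (adjusted p = 0.000136). For its relative Rnf43, at 5.79 to 8.68 against 4.20 to 8.03, the difference of 1.23 ± 0.47 did not pass (adjusted p = 0.0869).

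The secreted inhibitors were less even from array to array. Notum, an enzyme that strips the lipid from Wnt proteins, ran from 6.02 to 9.82 (median 8.82) against 4.28 to 6.23 (median 5.1), a difference of 3.05 ± 0.53 (adjusted p = 0.00112), and only the lowest high array, quadruple 8, reached into the low range. Wif1, which binds Wnt ligands outside the cell, had the largest rise of the list, 3.81 ± 0.85 (adjusted p = 0.00644). Its high arrays split: 5 lay at 12.30 to 12.49 and quadruple 4 at 10.65, while quadruple 1, 12 and 8 were at 7.18, 8.08 and 7.76, inside the low range of 3.33 to 8.86. Dkk4, an antagonist of the Lrp co-receptors, ran from 4.5 to 12.37 (median 6.46) against 3.61 to 4.29 (median 4.03), a difference of 2.98 ± 0.69 (adjusted p = 0.00832). Triple K5Cre 5 supplied the top value, and the next array was at 8.21. Dkk1, of the same family, showed the opposite arrays: it was at 9.97, 9.94 and 12.04 on quadruple 1, 12 and 8 and at 3.42 to 3.72 on the other 6 high arrays, and its difference of 2.55 ± 0.93 did not pass (adjusted p = 0.0736). The arrays with high Dkk1 were thus the ones with the lowest Wif1 in the high set, and 2 of these 3 arrays came from the same animal, Q190.

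Targets that act in other ways also rose. Tnfrsf19, a receptor of the tumour necrosis factor family also called Troy, ran from 5.05 to 12.13 (median 10.51) against 3.90 to 9.25 (median 6.74), a difference of 3.18 ± 0.86 (adjusted p = 0.019). Lgr5, the R-spondin receptor that marks stem cells of hair follicle and gut, ran from 6.57 to 9.04 against 4.31 to 7.88 and differed by 1.87 ± 0.51. Its normal gland level, 6.41 to 9.76, spanned both sets. Bambi, a decoy receptor of the BMP and TGF-beta pathway, differed by 1.77 ± 0.50. Tcf4, here the basic helix-loop-helix factor and not the Wnt effector Tcf7l2, ran from 10.15 to 11.75 against 8.06 to 10.29 and differed by 1.38 ± 0.26 (adjusted p = 0.002). The transcription factor Sp5 differed by 1.61 ± 0.51 and the hyaluronan receptor Cd44 by 0.85 ± 0.26, calls lost in 11 and 5 of the 18 fits that left out an array. Prox1, a homeobox factor, was the only member called lower, by 0.98 ± 0.27, from a median of 3.59 on the low arrays to 2.69 on the high ones.

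Well known targets were among those that did not pass. Myc, the growth regulator, ran from 8.35 to 9.96 on the high arrays and from 8.60 to 10.06 on the low arrays, a difference of -0.01 ± 0.22 (adjusted p = 0.983). The cell cycle gene Ccnd1 differed by 0.58 ± 0.28 (adjusted p = 0.182). Lef1, a TCF/LEF factor, was at 8.32 on triple K5Cre 5 and 7.97 on quadruple 14, and at 4.69 to 5.76 on the other 7 high arrays against 4.44 to 5.43 on the low ones (adjusted p = 0.176). Fzd7, Ephb3, Ctla4, Ccn4, Ascl2, Cdx2 and Sp8 had differences between -0.19 and 0.45, none past the test. Among the quadruple arrays alone, 8 of 26 members were called higher and 1 lower (median 1.09), against 2.20% and 3.28% of all genes. Without animal Q648 the count was 11, and without the arrays low in Xist 10. Leaving out each array in turn gave 10 to 13. Within the list, the calls of Sp5 and Cd44 were lost without Q648 and those of Sp5, Cd44, Bambi and Prox1 without the arrays low in Xist.

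**Figure D2:**
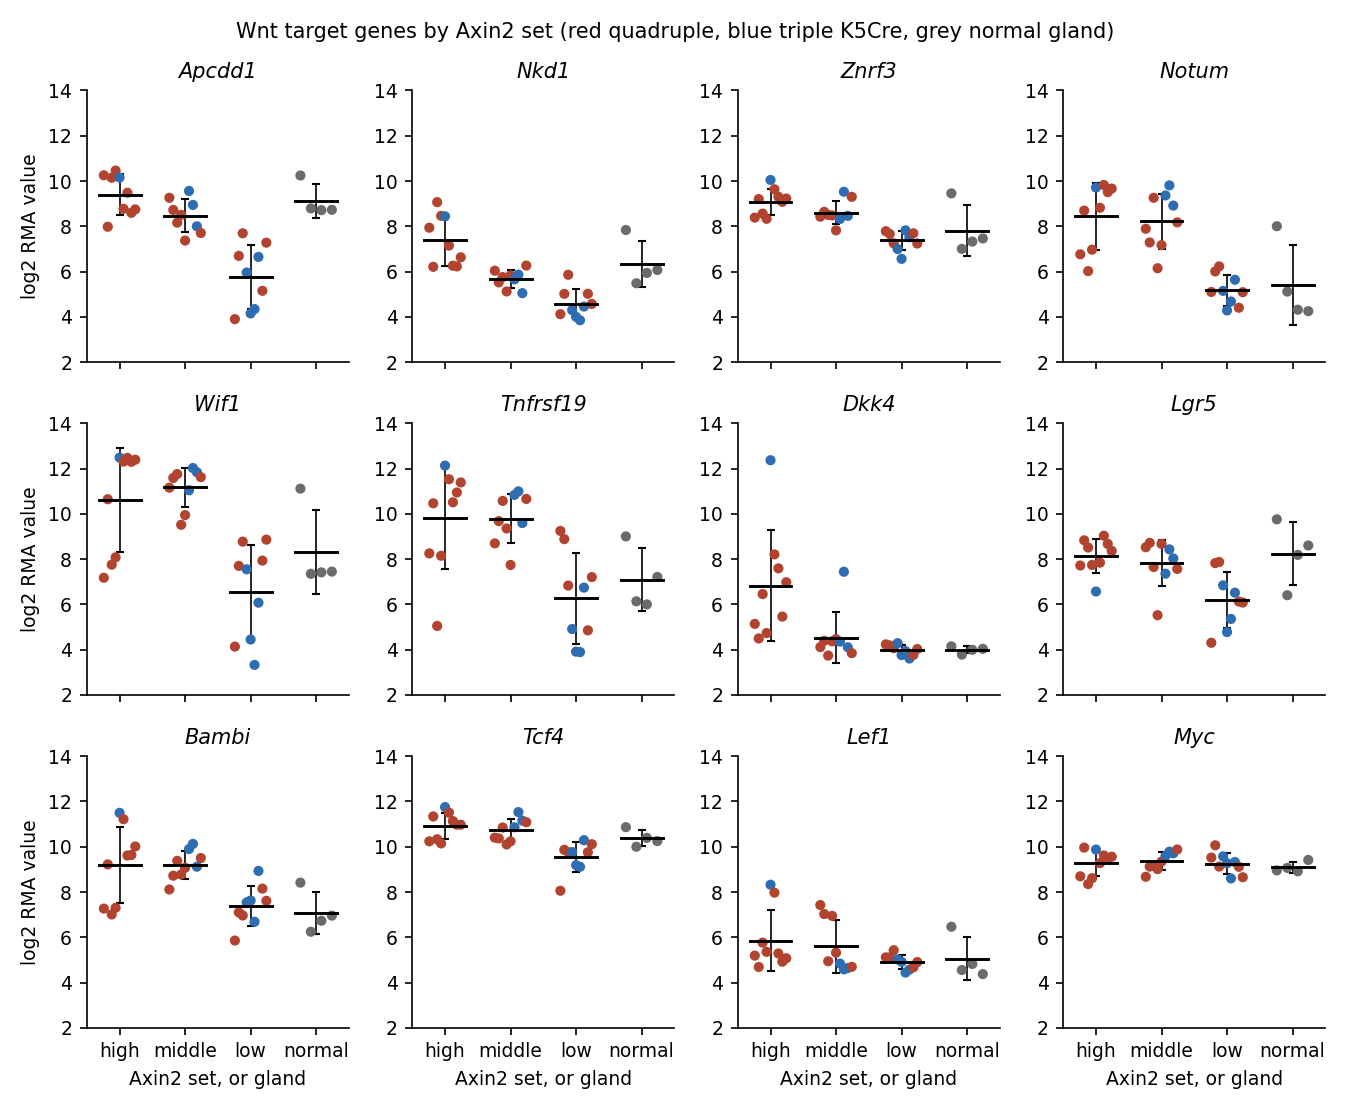
Log2 RMA values (vertical axis) of 12 Wnt target genes on the arrays of each Axin2 set and in normal gland, 1 point per array, with the mean (bar) and SD (whisker). Apcdd1, Nkd1, Znrf3 and Dkk4 do not overlap between the high and low sets, Wif1 splits within the high set, and Myc lies at the same height in both.

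The promoters of Axin2, Wif1 and Tnfrsf19 are printed because Wnt output is read here at the RNA of target genes, and TCF/LEF factors are known to bind the core CTTTGAT or CTTTGAA. Apcdd1, whose rise was larger than that of Tnfrsf19, had no promoter among those searched. Each window runs from 250 bases before to 50 after a RefSeq start site on build GRCm38.p6, 5′ to 3′ on the gene's strand. Capitals mark a match to either core on either strand. Axin2 (chr11:108920099-108920398, plus strand) and Wif1 (chr10:121033754-121034053, plus strand) had no match in these windows. Of the 2 listed starts of Tnfrsf19, chr14:61046806-61047105 (minus strand) had none and chr14:61037938-61038237 (minus strand) had a match, ATCAAAG, at position -202 counted from 0 at the start site.
Axin2: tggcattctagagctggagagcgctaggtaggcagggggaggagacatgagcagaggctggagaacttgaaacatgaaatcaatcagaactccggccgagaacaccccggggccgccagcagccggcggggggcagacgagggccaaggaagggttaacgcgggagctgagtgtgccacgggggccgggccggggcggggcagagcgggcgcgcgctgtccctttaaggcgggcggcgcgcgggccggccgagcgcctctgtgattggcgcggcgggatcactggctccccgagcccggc
Wif1: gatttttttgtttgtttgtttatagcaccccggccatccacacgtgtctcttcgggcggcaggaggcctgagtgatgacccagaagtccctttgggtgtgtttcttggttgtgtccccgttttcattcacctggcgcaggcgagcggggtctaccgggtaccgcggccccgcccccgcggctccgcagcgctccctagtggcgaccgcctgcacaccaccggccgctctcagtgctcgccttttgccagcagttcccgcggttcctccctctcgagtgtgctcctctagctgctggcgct
Tnfrsf19: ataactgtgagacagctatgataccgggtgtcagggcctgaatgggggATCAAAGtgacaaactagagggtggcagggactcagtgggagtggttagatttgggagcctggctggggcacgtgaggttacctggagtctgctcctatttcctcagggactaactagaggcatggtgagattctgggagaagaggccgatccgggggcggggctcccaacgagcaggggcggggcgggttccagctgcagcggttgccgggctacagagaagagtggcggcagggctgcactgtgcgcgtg

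Of the 13 called Wnt targets and Axin2, 7 had a promoter among those searched and 2 of these held a match (28.6%). Of the 13 measured members not called higher, 10 had a promoter and 3 held a match (30%). Over 14453 genes, 8.08% held a match in windows of this length. A match is a run of letters and not a binding site.

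Other parts of the Wnt pathway moved in single members. Of 19 Wnt ligands, 3 were higher and 1 lower, against 5.01% and 5.91% of all genes. Wnt10a, a ligand of ectodermal appendages, ran from 5.92 to 9.08 against 4.65 to 8.29 and was higher by 1.86 ± 0.40 (adjusted p = 0.00533). Wnt5a, which mainly signals without beta-catenin, was higher by 2.01 ± 0.64 (adjusted p = 0.0435), a call lost in 14 of the 18 fits that left out an array. Its relative Wnt5b was lower by 1.75 ± 0.40, from a median of 8.06 on the low arrays to 6.05 on the high ones. The third rise, Wnt6 at 1.16 ± 0.26, is named here after its value was seen.

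Among 18 receptors, 5 were higher and 1 lower, against 5.01% and 5.91% of all genes. Ror2, the tyrosine kinase receptor of Wnt5a, ran from 6.29 to 8.65 against 4.0 to 6.56 and rose by 2.03 ± 0.41 (adjusted p = 0.00328). Lgr5 is counted here as well, and Fzd5, a Frizzled receptor, was lower by 1.12 ± 0.30. Fzd10 (1.44 ± 0.32), Ror1 (1.20 ± 0.31) and Fzd2 (0.81 ± 0.26) were the remaining rises, named after their values were seen. Of 18 secreted modulators, 4 were higher: Wif1, Notum, Dkk4 and Sostdc1. Wif1, Notum and Dkk4 were already counted among the Wnt targets. Sostdc1, an antagonist of both Wnt and BMP in teeth, hair and mammary placodes, ran from 8.68 to 12.56 (median 11.55) against 3.34 to 10.04 (median 8.18), a rise of 3.51 ± 0.65 (adjusted p = 0.00165). Its low end was set by triple K5Cre 2, at 3.34.

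The machinery that degrades beta-catenin was nearly level. Of 17 members of the destruction complex list, Ctnnb1 alone passed, and the median difference was 0.01. Ctnnb1, beta-catenin itself, ran from 12.74 to 13.39 on the high arrays and from 12.37 to 12.95 on the low arrays, a difference of 0.32 ± 0.09 (adjusted p = 0.0239). The call was lost without quadruple 9, triple K5Cre 5 or quadruple 14. Among 13 nuclear partners, Tle3, a Groucho co-repressor, was the only one called, at 9.87 to 10.25 against 9.14 to 9.96, higher by 0.51 ± 0.10. Single calls of 17 and of 13 are near the 5.01% of all genes called higher.

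Several pathways that work beside Wnt in skin appendages had members called higher as well, against 5.01% of all genes. Of 20 BMP genes, 7 rose and 0 fell, with a median of 0.81. Fst, follistatin, a secreted binder of activin and BMP, rose from a median of 8.49 to 10.97, by 2.13 ± 0.41 (adjusted p = 0.00207). The ligand Bmp2 rose by 2.08 ± 0.64 (adjusted p = 0.0355), with both sets overlapping, and 8 of the 18 fits without an array lost its call. Of 12 Hedgehog genes, all 3 Gli factors were called: Gli3 at 7.30 to 8.54 against 5.32 to 7.22 and by 1.23 ± 0.25, Gli2 by 1.37 ± 0.38, and Gli1, named after its value was seen, by 1.10 ± 0.26. For Gli3 all high arrays were above all low ones, as for 0.209% of all genes. Of 9 genes of the ectodysplasin pathway and placodes, 4 rose. They were Tnfrsf19 and Dkk4 from the Wnt targets and, named after their values were seen, the receptor Edar (1.82 ± 0.43) and its adaptor Edaradd (1.05 ± 0.29). Among the quadruple arrays alone, where 2.20% of all genes rose, the counts of rises were 3 for BMP, 1 for Hedgehog and 2 for the ectodysplasin list.

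The Notch, FGF and ERK lists held 1 or 2 calls each, where 5.01% of all genes were called higher. Jag2, a Notch ligand, rose by 1.19 ± 0.29, and Heyl, a Notch target, by 0.75 ± 0.23, the only 2 of 14 Notch genes called. Heyl lost its call in 10 of the 18 fits that left out an array, and among the quadruple arrays alone 0 Notch genes were called. Of 18 FGF genes, Fgfbp1 alone passed, a carrier that releases FGFs from the matrix, at 6.78 to 10.83 against 3.53 to 11.31 and by 3.09 ± 0.92. A single call of 18 is near the 5.01% of all genes, and it was lost in 6 of the 18 fits without an array, with 1 array per animal, among the quadruple arrays alone and without Q648. Etv4, an ETS factor downstream of FGF and ERK, ran from 7.69 to 10.03 against 6.18 to 7.79 and rose by 1.73 ± 0.35 (adjusted p = 0.0032). Spred2, an ERK inhibitor, rose by 0.65 ± 0.17, and these were the 2 of 12 ERK feedback genes called.

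The largest differences of all were in genes of stratified, cornifying epithelium. Of 27 squamous genes, 16 were higher in the Axin2-high set (against 5.01% of all genes) and 0 lower. All 27 differences were positive, and their median was 3.64. The list mean ran from 6.98 to 11.73 on the high arrays (median 10.61), from 7.14 to 12.33 in the middle set (median 10.72) and from 4.62 to 11.45 on the low arrays (median 5.62). In normal gland it ran from 4.68 to 8.08. In the low set quadruple 17, at 11.45, and triple K5Cre 7, at 7.64, lay within the range of the high set. Quadruple 4 and quadruple 8, at 6.98 and 7.22, were the low arrays of the high set, so the sets overlapped.

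The 10 largest rises over all genes were mostly genes of epidermal differentiation. Rptn, the cornified envelope protein repetin, rose by 6.05 ± 1.4. Krtdap, a keratinocyte differentiation protein, ran to a set mean of 12.18 ± 1.87 (SD, n = 9) against 6.12 ± 3.61 (SD, n = 9), a rise of 5.69 ± 1.23. Serpinb11, a protease inhibitor, was the most even on the high arrays, at 11.15 ± 0.37 (SD, n = 9) against 5.69 ± 2.58, and rose by 5.39 ± 0.75 (adjusted p = 0.000187). The cornified envelope genes Ivl, involucrin, and Sprr1b rose by 5.09 ± 1.06 and 5.1 ± 1.44, and filaggrin, Flg, by 4.70 ± 1.37. Krt6b, a keratin of activated and follicular keratinocytes, rose by 5.24 ± 1.34 and ran to 14.19 on quadruple 17 in the low set. The remaining 3 were Stfa3, a cysteine protease inhibitor (5.15 ± 1.43), Calm4, a calcium-binding protein of skin (5.06 ± 1.17), and Prr9, a proline-rich protein (4.95 ± 1.20).

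The squamous count varied between fits. Among the quadruple arrays alone, which hold quadruple 17, quadruple 4 and quadruple 8, 2 of 27 members were called and the median was 3.18. In that fit 2.20% of all genes were called higher. Leaving out each array in turn gave 11 to 23 called members, and without the arrays low in Xist there were 9. With 1 array per animal there were 8 (median 3.72), and with 13 against 13 arrays 1 (median 2.31). Of the 10 largest rises, Serpinb11 and Ivl kept their call among the quadruple arrays alone.

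Hair follicle genes followed in part. Of 17 follicle regulators, 6 were higher (against 5.01% of all genes) and 0 lower, with a median of 0.98. Krt17, a keratin of follicle and activated epidermis, ran from 10.16 to 12.86 (median 12.24) against 6.08 to 12.53 (median 8.21) and rose by 3.28 ± 0.62 (adjusted p = 0.002), and its top low array was again quadruple 17. Dlx3, a homeobox factor of hair matrix and placenta, rose by 2.34 ± 0.47 (adjusted p = 0.003). Of the hair shaft and root sheath keratins all 28 differences were positive, with a median of 1.39, and Krt73 alone passed the test. A single call of 28 is near the 5.01% of all genes called higher. Without animal Q648, where 4% of all genes were called higher, there were 5 calls (median 2.02). Among the quadruple arrays alone there were 0 (median 0.96). Krt73, an inner root sheath keratin, ran from 6.03 to 11.01 against 3.62 to 8.56 and rose by 3.16 ± 0.89. In the high set the list mean was high on few arrays, namely quadruple 14 (10.56), triple K5Cre 5 (7.96), quadruple 19 (6.32) and quadruple 15 (6.19), while the other 5 lay at 4.49 to 5.24. The low arrays lay at 4.23 to 5.97. It was also high on quadruple 10 (9.61) and quadruple 6 (7.78) of the middle set, whose other arrays lay at 4.26 to 5.49. Normal gland 1 was at 7.69 and the other glands at 4.11 to 4.32. Sebaceous genes did not rise: of 8, 0 were higher and 2 lower, against 5.01% and 5.91% of all genes. Scd1 and Plin2 were the 2, with differences of -1.74 ± 0.42 and -1.51 ± 0.44. Both are of lipid storage or synthesis and also expressed in fat and milk-secreting cells. The call of Plin2 was lost in 5 of the 18 fits that left out an array. Every high array was below every low array for Scd1, as for 0.198% of all genes.

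Luminal and secretory genes went the other way. In bulk tissue, fewer cells of a type and less RNA per cell cannot be told apart. Of 17 luminal genes, 10 were lower in the Axin2-high set (5.91% of all genes were) and 0 higher, with a median of -1.42. The list mean ran from 7.57 to 9.44 on the high arrays (median 8.88), from 8.38 to 10.37 in the middle set and from 8.97 to 11.31 on the low arrays (median 10.29), with every normal gland array at 9.76 or above. Elf5, a factor of alveolar luminal cells, ran from 3.89 to 11.03 (median 8.84) against a minimum of 8.40 and a median of 11.37 on the low arrays and was lower by 3.07 ± 0.76 (adjusted p = 0.0116). Cited1, a transcriptional co-regulator of hormone-responsive ducts, was lower by 3.05 ± 0.85. The luminal keratins Krt8 and Krt18 were lower by 1.28 ± 0.38 and 1.30 ± 0.40 (adjusted p = 0.0321 and 0.0365), calls lost in 6 and 10 of the 18 fits without an array, and the epithelial adhesion gene Epcam by 1.52 ± 0.41. These 3 genes stayed above 10 on every high array except for Epcam on quadruple 8, at 8.13. Among the quadruple arrays alone 3 of the luminal genes were called lower (3.28% of all genes were), and without animal Q648 there were 5 (4.88%).

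Milk protein genes fell furthest. Of 12, 7 were lower (against 5.91% of all genes) and 0 higher. All 12 differences were negative, with a median of -3.99. Csn3, kappa casein, ran from 5.81 to 13.21 (median 7.96) on the high arrays and had a median of 14.31 and a minimum of 10.85 on the low arrays, a fall of 4.81 ± 0.87 (adjusted p = 0.00154). The caseins Csn1s1 and Csn1s2b were lower by 4.41 ± 1.00 and 4.59 ± 1.35. For Csn1s2b the low arrays ran from 2.63 to 12.60 with a median of 3.51, and 4 arrays lay at 10.92 or above (quadruple 9, 3 and 5 and triple K5Cre 1) while the other 5 lay at 3.51 or below. Lalba, the lactose synthase subunit, was lower by 4.20 ± 1.18, and Btn1a1, butyrophilin of the milk fat globule, by 3.83 ± 1.10. The list mean ran from 5.18 to 9.0 on the high arrays and from 7.0 to 13.44 on the low arrays, with 4 low arrays (quadruple 9, 5 and 3 and triple K5Cre 1) at 12.49 or above and the other 5 at 8.67 or below. Among the quadruple arrays alone 8 members were called lower (3.28% of all genes were), and without animal Q648 there were 3 (4.88%). Leaving out each array gave 3 to 10.

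Besides the milk genes, the 10 largest falls held Fgg, a fibrinogen chain (4.18 ± 0.87), Tmc4, a transmembrane channel-like protein (4.02 ± 0.51, adjusted p = 0.00013), and Sftpd, surfactant protein D (3.88 ± 0.82). The other 2 were Foxi1, a forkhead factor (3.85 ± 0.76), and Tlcd4, a membrane protein (3.74 ± 0.77). Tmc4 lay at 4.32 to 7.54 on the high arrays and at 7.48 to 10.82 on the low arrays, and the only low array inside the high range was quadruple 17, at 7.48. All 10 of these falls kept their call among the quadruple arrays alone, but those of Csn1s2b, Btn1a1 and Lalba were lost without Q648, with 1 array per animal and in 5, 4 and 1 of the 18 fits without an array.

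The basal list divided. Of 17 members, 3 were higher and 4 lower (against 5.01% and 5.91% of all genes), with a median of -0.07. Krt14, a keratin of basal and stratified epithelium, ran from 11.91 to 13.54 (median 13.15) against 7.37 to 13.99 (median 9.73) and rose by 2.97 ± 0.59 (adjusted p = 0.00307). Krt5, its partner keratin and the K5 of the driver, ran from 10.60 to 12.73 against 5.74 to 12.57, and its difference of 1.67 ± 0.57 did not pass (adjusted p = 0.0567). Krt17 was the second rise and Trp63, the basal master regulator p63, the third (2.08 ± 0.53, named after its value was seen). The contractile genes of myoepithelium fell: Myh11, smooth muscle myosin, by 3.37 ± 0.63 from a median of 8.32 to 4.95, and Cnn1, calponin, by 3.06 ± 0.64 from a median of 8.64 to 5.41. Oxtr, the oxytocin receptor, and Tagln, transgelin, were also lower, by 1.96 ± 0.62 and 1.71 ± 0.43, and both are named after their values were seen. Of the called members, the keratins and p63 were thus higher and the contractile genes and Oxtr lower.

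**Figure D3:**
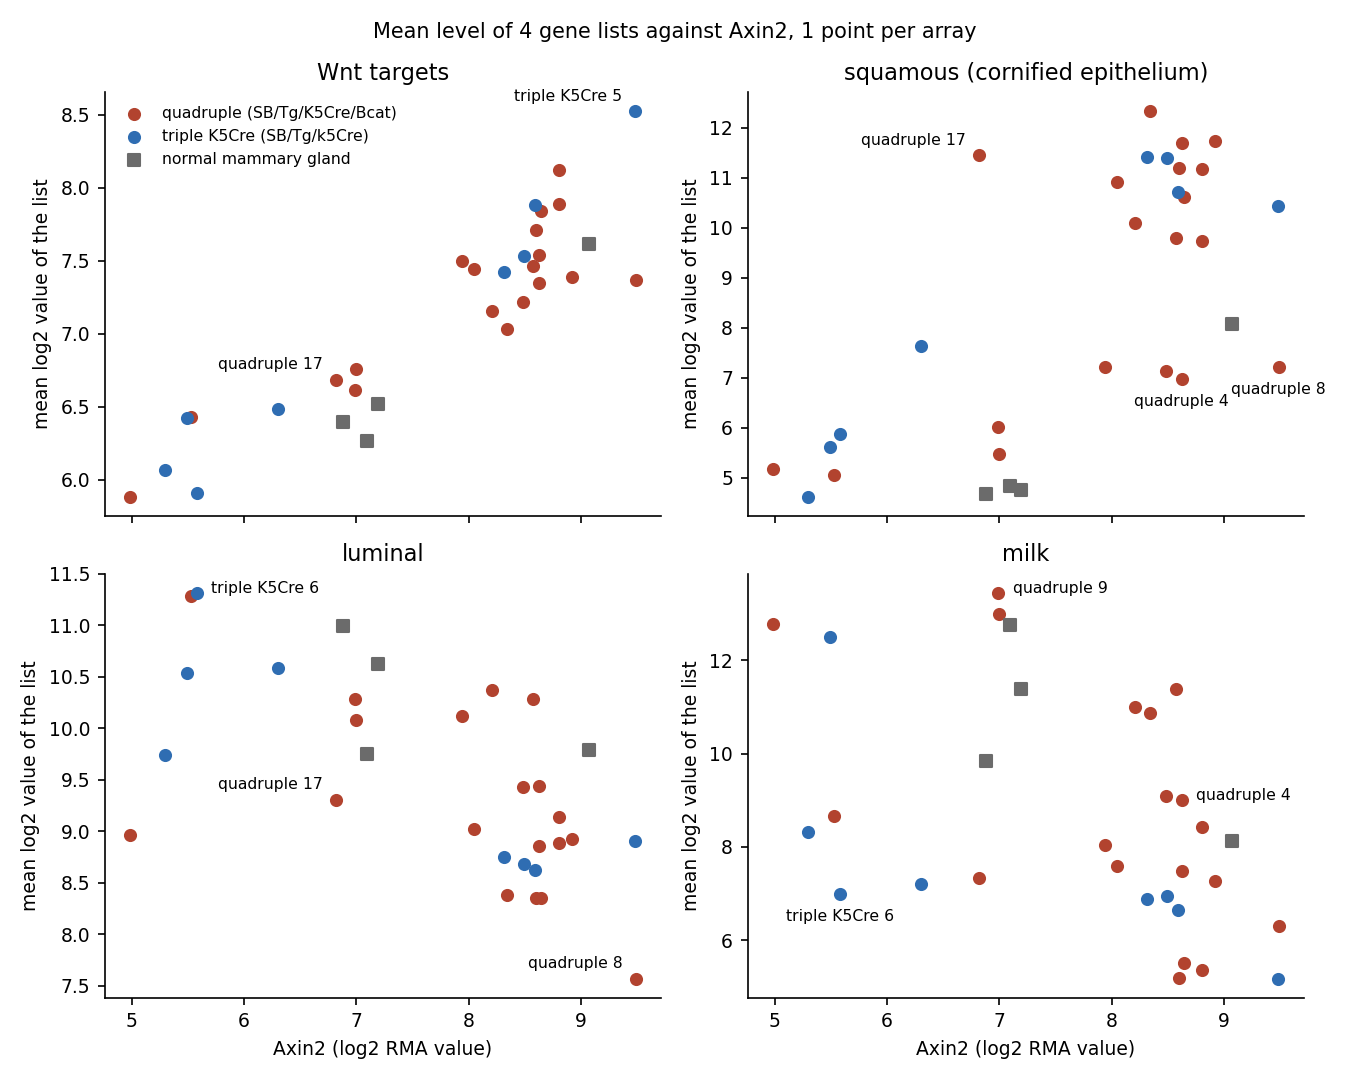
Mean log2 value of the Wnt target, squamous, luminal and milk lists (vertical axes) against Axin2 (log2 RMA value) on the 27 K5Cre arrays and the 4 normal gland arrays, 1 point per array. The Wnt target mean separates high from low arrays, the squamous mean does so except for quadruple 17, quadruple 4 and quadruple 8, and the milk mean overlaps.

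Few proliferation genes passed. All 19 mitosis genes and all 21 replication genes had positive differences, with medians of 0.59 and 0.44. The test was passed by 2 and 3 of them, where 5.01% of all genes were called higher. Both counts were 0 without the animal block, with 1 array per animal, without Q648 and with 6 against 6 or 13 against 13 arrays. Cenpe, a kinetochore motor, rose by 0.99 ± 0.32 and Kif23, a motor of cytokinesis, by 0.94 ± 0.30. Rrm2, of the enzyme that makes deoxynucleotides, rose by 1.06 ± 0.33, Mcm5, a part of the replicative helicase, by 0.90 ± 0.29, and Mcm3, of the same complex and named after its value was seen, by 0.84 ± 0.24. The calls of Cenpe and Mcm5 were each lost in 12 of the 18 fits that left out an array, those of Kif23 in 11 and of Rrm2 in 9. Mki67, the common marker of cycling cells, differed by 0.54 ± 0.27 (adjusted p = 0.186). The mitosis list mean was 7.5 to 9.0 on the high arrays, 6.46 to 9.0 on the low arrays and 5.53 to 6.73 in normal gland.

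Lists of stroma and blood cells gave few calls, where 5.01% of all genes were called higher and 5.91% lower. None of 11 mesenchymal transition genes, 13 collagen and matrix genes, 12 endothelial genes, 10 neutrophil genes, 10 T cell genes, 10 B cell genes or 11 interferon-stimulated genes passed. Fbln1, a matrix glycoprotein, was the only one of 11 fibroblast genes called and ran from 7.95 to 9.79 against 4.31 to 8.94, a rise of 2.20 ± 0.42 (adjusted p = 0.00204), while the median of its list was -0.32. Cd14, a receptor for bacterial lipopolysaccharide, was the only one of 12 macrophage genes called, lower by 3.13 ± 0.42 (adjusted p = 0.000152). It ran from 7.53 to 9.96 on the high arrays and from 10.29 to 13.08 on the low arrays. The sets did not overlap, as for 0.198% of all genes in this direction. Single calls of 11 and of 12 are near the shares of all genes. The macrophage list as a whole lay at 7.33 to 9.87 against 8.14 to 10.64. Of the transition genes, Snai2 (1.14 ± 0.38, adjusted p = 0.0504) and S100a4 (1.28 ± 0.47, adjusted p = 0.0742) had the smallest p. S100a9, a neutrophil and keratinocyte protein, differed by 2.36 ± 1.42 (adjusted p = 0.287), and the interferon genes Rsad2 and Ifit1 by -1.19 ± 0.72 and -1.30 ± 0.80 (adjusted p = 0.286 and 0.3).

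The genes of smallest p in the other lists with no call did not reach the threshold either. Vwf and Cldn5 of endothelium differed by -1.13 ± 0.44 and -1.02 ± 0.44 (adjusted p = 0.0895 and 0.129), and all 12 endothelial differences were negative. Col6a1 and Postn of the matrix differed by 0.84 ± 0.47 and -0.63 ± 0.37, Ltf of neutrophils and milk by -1.70 ± 0.74, Cd8b1 and Cd4 of T cells by 0.58 ± 0.45 and -0.12 ± 0.10, and Blnk and Jchain of B cells by 0.89 ± 0.38 and -1.37 ± 1.30.

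Few fat, muscle and nerve markers were called. All 11 adipocyte differences were negative, with a median of -1.47, and 1 was called, the lipase Pnpla2, lower by 1.4 ± 0.38. The adipocyte list mean ran from 5.58 to 8.55 on the high arrays, from 5.03 to 11.48 on the low arrays and from 12.54 to 12.88 in normal gland. Adipoq, adiponectin, ran from 2.47 to 9.50 against 2.78 to 12.81 (adjusted p = 0.189). Of 15 muscle genes, 14 had a negative difference and 1 was called, myoglobin, Mb, lower by 2.13 ± 0.59. The muscle list mean was 4.23 to 9.38 on the high arrays and 4.5 to 10.69 on the low arrays. Cdh19, a cadherin of Schwann cells, lay at 2.66 to 2.98 on the high arrays and 3.07 to 7.13 on the low arrays and was lower by 2.03 ± 0.41, and Mbp, a myelin protein, by 0.71 ± 0.20, the 2 of 9 Schwann cell and melanocyte genes called. Against 5.91% of all genes, 1 of 11 adipocyte and 1 of 15 muscle genes is near the background, while 2 of 9 Schwann cell and melanocyte genes is above it.

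**Figure D4:**
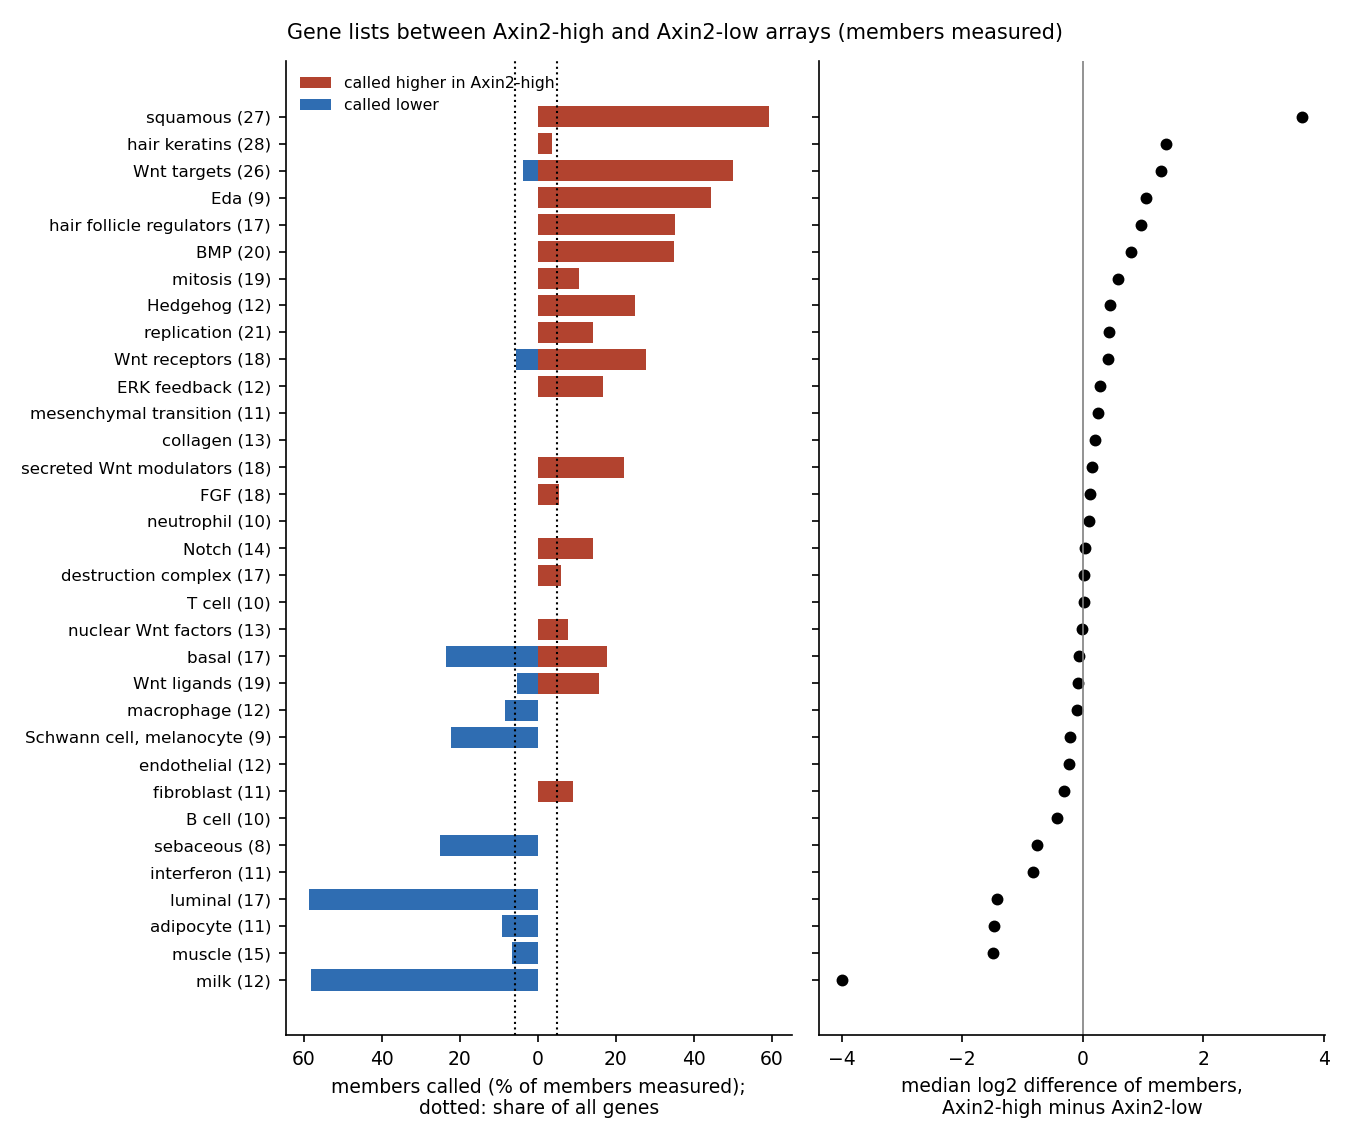
Share of the measured members of each of 33 gene lists called higher (red) or lower (blue) in the Axin2-high set, in percent, with dotted lines at 5.01% and 5.91% for all genes, and the median log2 difference of the members (right). By median, squamous genes, hair keratins and Wnt targets lie at the upper end. Milk, muscle, adipocyte and luminal genes lie at the lower end.

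The means of marker lists were then added as covariates. With those of fat and muscle, 370 genes were higher and 558 lower, including 9 of 26 Wnt targets and 7 of 27 squamous genes. With those of the luminal and basal lists, 1 gene was higher and 0 were lower by limma, while 3066 had an unadjusted p under 0.05. In that fit the median of the Wnt targets was 1.45 and that of the squamous genes 1.06, with 0 members of either called. The part of epithelial composition in the result was not tested beyond these values.

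The genes whose pattern was most like Axin2 over the 27 arrays were found by Pearson correlation, given as a description. They share arrays and some animals, so the 27 points are not independent. Apcdd1 came first (0.94), followed by Slc38a4, an amino acid transporter (0.91), Serpinb11 (0.89), Map9, a microtubule-associated protein (0.88), and Rps25, a ribosomal protein (0.86). Slc38a4 ran from 6.48 to 8.21 on the high arrays and from 2.30 to 6.21 on the low arrays, and Map9 from 6.57 to 7.35 against 4.64 to 6.44. Neither overlapped, as for 0.209% of all genes in this direction. Genes picked by correlation with Axin2, which also set the arrays, tend to separate by that choice, so nothing is read from it. Rps25, at 8.97 to 9.52 against 7.61 to 9.14, overlapped through quadruple 17. The most opposed were Igsf5, an immunoglobulin superfamily protein of tight junctions (-0.88), Gstt3, a glutathione transferase (-0.86), Alg14, of N-glycan synthesis (-0.85), Mfsd6l, a transporter-like protein (-0.84), and Capn5, a calpain (-0.84). Igsf5 ran from 3.31 to 5.04 on the high arrays and from 4.81 to 9.20 on the low arrays, and its lowest low array was again quadruple 17.

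The relation to Axin2 was then compared between genotypes. With Axin2 as a continuous covariate, 0 genes had a slope that differed between quadruple and triple K5Cre arrays by limma (smallest adjusted p 0.0867), while 1612 had an unadjusted p under 0.05. With genotype as a covariate 1197 genes were higher and 1286 lower. Among the quadruple arrays alone, 400 were higher and 596 lower. A fit of triple K5Cre arrays alone was not made, since the high set holds 1 of them. That array, triple K5Cre 5, had the highest Wnt target mean of all 27 (8.52, against 7.35 to 8.12 on the quadruple arrays of the high set) and the top values of Dkk4 (12.37), Sp5 (9.41), Lef1 (8.32), Znrf3 (10.05) and Tnfrsf19 (12.13). Its squamous mean (10.43) and luminal mean (8.91) lay inside the range of those quadruple arrays, and its milk mean (5.18) was the lowest of the set.

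Animal Q648 offered the comparison within a single mouse, since its arrays quadruple 8, 10 and 9 fell in the high, middle and low set. Axin2 was 9.49, 8.34 and 6.99. The Wnt target mean followed that order, at 7.37, 7.04 and 6.61, and so did the luminal mean in reverse, at 7.57, 8.38 and 10.29, and the milk mean, at 6.32, 10.86 and 13.44. The squamous mean did not: it was 7.22, 12.33 and 6.02, highest on the middle array. Quadruple 8 also had the highest interferon list mean of the high set (10.93) and the highest T cell list mean (7.61), and quadruple 9 had adipocyte and muscle means of 11.48 and 10.07. Of the 727 genes called higher in a fit without this animal, 68.2% were higher on quadruple 8 than on quadruple 9. Of the 887 called lower, 31.5% were. Over all genes the share was 53.4%. The 3 arrays are a single animal, so these shares carry no test.

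**Figure D5:**
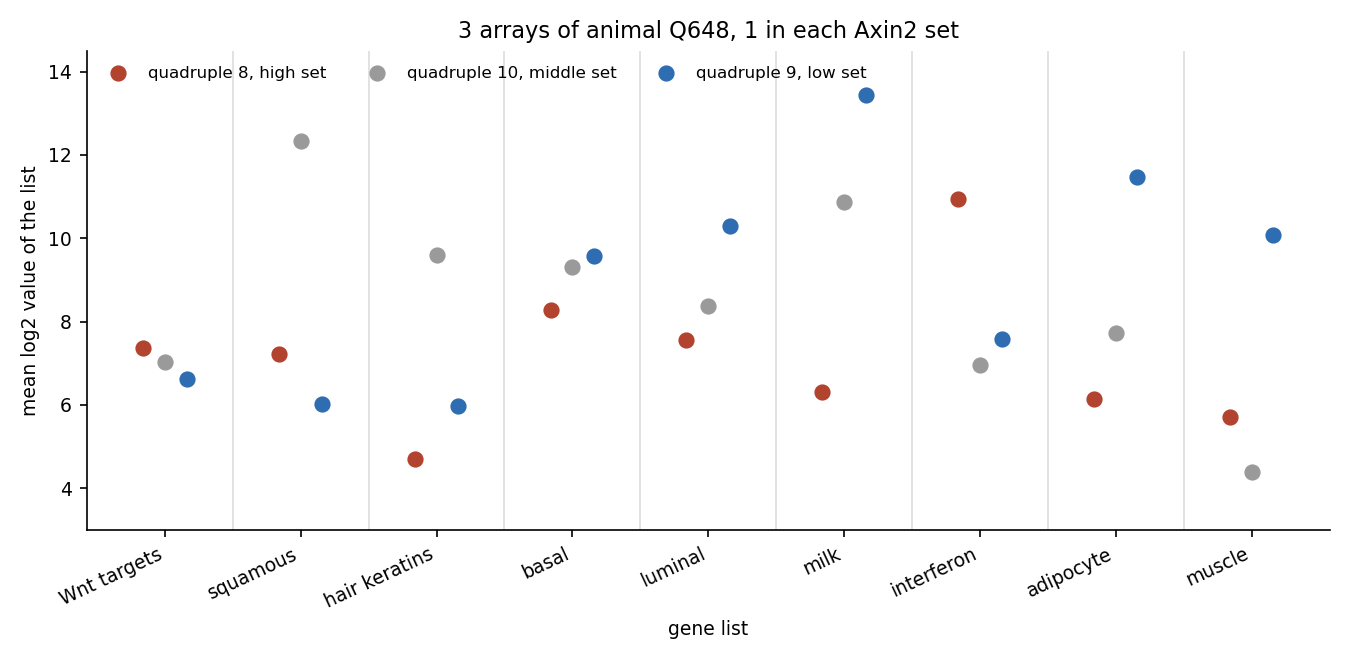
Mean log2 value of 9 gene lists (vertical axis) on the 3 arrays of animal Q648, 1 point per array, from the Axin2-high (red), middle (grey) and low (blue) set. Wnt targets step down with Axin2 from 7.37 to 6.61 and milk genes step up from 6.32 to 13.44, while the squamous list peaks on the middle array.

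The middle set, which took no part in the calls other than in the estimate of spread, is next to the high set in Axin2 by the ranking itself, so nothing is read from where its means lie. Of the 911 genes called higher, 761 (83.5%) had a middle mean nearer to the high than to the low mean, and of the 1075 called lower, 957 (89%) did. Over all genes tested the share was 66.4%. Wif1 had a middle median of 11.59, against 12.30 and 7.55 in the high and low sets. The squamous list mean had a middle median of 10.72, against 10.61 and 5.62. Cd14 lay between, with a middle median of 10.09 against 8.77 and 11.53.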

How the data were processed

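RNA of 39 mouse tissue samples was hybridised to Affymetrix arrays after 3' IVT labelling, as the labels' protocols state. The deposited values are log2 levels of 45101 probe sets, made with RMA per the submitters' processing notes, which name no version among the sources used here. They ran from 1.65 to 14.61, array medians from 5.10 to 5.27, and 0 columns were left unused. Detection calls were not used here, so low values were not separated from background, and precision depends on the number of arrays.

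The platform annotation, updated through RefSeq symbols (GRCm38.p6), gave 1 gene to 34958 probe sets, several to 932 and none to 9211, and 204 symbols were unmatched. Each of 18194 genes took its brightest probe set, with cross-hybridising sets used for 100 genes that had no other. Axin2 chose the arrays and was left out of the tests, which leaves 18193 genes with no filter on low values.

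limma fitted a mean for the high, middle and low set over 27 arrays, with animal (the identifier shared by sample titles) as a random block (duplicateCorrelation) and eBayes with trend. A gene was called where its p, adjusted by Benjamini-Hochberg over all genes tested, was under 0.05. Nothing else says how samples were taken, so spread within an animal may be technical. Genotype was compared by Fisher's exact test and an exact permutation test over animals. The fit was tested on simulated data.

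The arrays, the 33 lists (497 of 529 members measured) and the tests were chosen with earlier results of these data known. Genes named are the 10 largest rises and falls (skipping clone, LOC, Gm and Riken names), up to 2 called rises and 2 called falls per list or the 2 smallest p, all Wnt targets, 10 markers given always, and the 5 highest and 5 lowest correlations with Axin2. Others are said to be named after their values were seen. Alternatives changed the block, genotype, arrays compared, normalization, probe sets, weights, trend and covariates. Fits without low-Xist arrays (log2 under 9), without Q648 and without each array were chosen after seeing the data and keep the main estimate of the animal correlation. Software was limma 3.58.1 in R 4.3.3, with scipy 1.17.1, pandas 2.3.3 and numpy 2.4.6 in Python 3.11.15.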

Additional observations from a re-analysis of the deposited data

Results flagged for a closer look

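Among 339 sets of values checked (Axin2 and the named genes in the high, low and normal gland arrays), 46 had a single array far from the others by Dixon's criterion; chance alone gives about 1 in 20, and genes of a tissue share arrays, so these are not independent.

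Normal gland 1 stood above the other 3 glands in Axin2 (9.07), in the Wnt targets and BMP genes Wif1 (11.12), Apcdd1 (10.25), Sp5 (7.21) and Bmp2 (9.51), and in the squamous genes Rptn (7.19), Serpinb11 (9.13), Krt6b (9.72), Stfa3 (8.19), Sprr1b (7.15), Ivl (6.26), Calm4 (9.14), Prr9 (10.39) and Flg (6.46). That gland was the only one from a triple mouse with Bcat in place of K5Cre. Normal gland 3 was lowest in Xist (5.64) and Rrm2 (5.66), and normal gland 4 was highest in Mcm5 (6.73).

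Quadruple 17 stood apart in the low set. It was highest in Rptn (12.48), Krt6b (14.19), Stfa3 (12.85), Sprr1b (12.85), Flg (10.32), Krt17 (12.53), Krt14 (13.98) and Dkk1 (4.82), and lowest in Tmc4 (7.48), Epcam (11.06) and Igsf5 (4.81). In the same set triple K5Cre 2 was lowest in Sostdc1 (3.34) and Krt5 (5.74), quadruple 9 highest in Krt73 (8.56), triple K5Cre 6 highest in Sp8 (3.58) and triple K5Cre 7 highest in Ascl2 (5.58).

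In the high set quadruple 8 was lowest in Wnt10a (5.92), Elf5 (3.89), Ephb3 (8.25), Epcam (8.13) and Xist (10.77), and highest in Wnt5a (12.26), Plin2 (12.50), Rsad2 (12.30) and Rps25 (9.52). Quadruple 4 was lowest in Sprr1b (2.42) and highest in Csn1s2b (4.70) and Lalba (6.61). Triple K5Cre 5 was highest in Dkk4 (12.37).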

How the results depend on the processing

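As shares of the genes tested, 5.01% were higher and 5.91% lower. The counts behind these fell by more than 1.5 times with 1 array per animal (1.71% and 2.0%), in the quadruple arrays alone (2.20% and 3.28%), with 6 against 6 arrays (2.15% and 3.84%) or 13 against 13 (1.65% and 1.84%), with fat and muscle covariates (2.03% and 3.07%) and with luminal and basal covariates (0.0055% and 0%). They rose with array weights (9.85% and 11.3%), and the lower share did with Axin2 as a continuous covariate (8.90%). Leaving out each array gave 2.59% to 6.12% higher and 3.49% to 7.68% lower. The smallest shares were those without quadruple 9, and without triple K5Cre 5 3.06% were higher. The cause of these changes was not tested. Of 112 named genes 82 were called; 54 of these kept their call in each fit that left out an array and 28 lost it in at least 1 (Bambi, Bmp2, Btn1a1, Cd44, Cenpe, Cited1, Csn1s2b, Ctnnb1, Epcam, Fgfbp1, Flg, Heyl, Kif23, Krt18, Krt73, Krt8, Lalba, Mb, Mbp, Mcm5, Plin2, Pnpla2, Rrm2, Sp5, Spred2, Sprr1b, Stfa3 and Wnt5a). The genotype comparison did not pass under its alternatives (exact permutation p from 0.188 to 0.316, Fisher's exact p from 0.242 to 0.673), and by limma 0 slopes differed between genotypes without the animal block (1514 at an unadjusted p under 0.05) or without the lowest genes (1243). Medians of lists near 0 changed sign between fits, the basal list among them (0.12 without Q648), and when genes of low mean were left out the median of secreted Wnt modulators was 0.71 rather than 0.16.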
